A study of Mus musculus with 24 samples.

Results

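Branched-chain amino acid breakdown was followed through 10 genes of the hepatocyte count table that act at or after the ketoacid dehydrogenase: Dbt, Ppm1k, Ivd, Mccc1, Mccc2, Auh, Hibch, Hibadh, Pcca and Pccb. They were taken by gene name from the 55421 genes counted, all 10 were found, and all 10 passed the filter on low counts that left 13583 genes for testing. The lowest raw count of any of them in any mouse was 186, for Auh in an old ND mouse, so none was near the limit of detection.

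Hepatocytes, the metabolic cells of the liver, were obtained by collagenase perfusion from 24 male mice, with 6 mice per group and 4 groups. The labels give both young groups as C57BL/6N at 6 months and both old groups as C57BL/6J at 24 months, while the paper states other ages and names only C57BL/6. HFD (diet 58Y1, 60% of energy from fat) was fed for 9 weeks to the young HFD and old HFD mice. ND was fed for the same time to the young ND and old ND mice, and it is a chow of 18% protein by the labels but diet 58Y2, a low-fat diet, by the methods. What differs between young and old may therefore be age or substrain, which cannot be told apart. Nnt, whose coding deletion is carried by C57BL/6J, stood at 1.34 to 2.64 CPM in young and 0.538 to 2.57 CPM in old mice, so its level did not separate the labels. The labels name 2 batches: each took 3 mice of every group, apart from the old ND group, which split 2 to 4.

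Leucine, isoleucine and valine are the branched-chain amino acids. Their amino group is removed mainly outside the liver, and the resulting ketoacids are oxidised in mitochondria by the branched-chain ketoacid dehydrogenase, a large complex that is abundant in liver. A kinase, encoded by Bckdk, switches the complex off by phosphorylation, and the phosphatase encoded by Ppm1k switches it on. After this irreversible step each amino acid follows its own route: leucine to acetyl-CoA and acetoacetate, valine to propionyl-CoA, and isoleucine to acetyl-CoA and propionyl-CoA.

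Levels are given as CPM, the counts of a gene relative to all counts of its library after TMM scaling between libraries, and differences as log2 fold changes from an edgeR model that fitted group and batch over the 24 mice together. A gene is said to be called when its p from the quasi-likelihood test of edgeR, after Benjamini-Hochberg adjustment over the 13583 genes tested, was under 0.05. Total counts on genes ran from 9200332 to 22185069 per mouse and were lowest in old HFD. Intervals and errors cover the spread between the mice sequenced, 1 library each. In these bulk samples the values cannot tell fewer cells of a type from less RNA per cell.

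The hepatocyte label was checked first. All 8 hepatocyte markers, among them Alb and Ttr, were present in every group, with a summed level of 64385 to 176213 CPM. The lowest sum was that of old ND replicate 4, and the other old ND mice ran from 131062 to 176213 CPM. Kupffer cell and macrophage transcripts were also present: the summed level of 6 markers was 1.14 to 45.0 CPM in young ND and 8.87 to 98.9 in young HFD, against 26.4 to 652 in old ND and, with HFD, 24.3 to 332 in old mice. Of the 24 mice, 4 lay above 100 CPM, namely old ND replicates 3 and 4 at 493 and 652 CPM and old HFD replicates 4 and 6 at 202 and 332 CPM, all in batch 2. By the median Pearson correlation of log2 CPM with the other mice, old HFD replicate 2 (0.877), old ND replicate 4 (0.884) and old HFD replicate 4 (0.895) stood lowest.

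By the median over the 10 genes, the breakdown enzymes were lowest in the 4 libraries with the most macrophage transcripts, though not every gene was low in each. Old ND replicate 4 had the lowest level of its group for 10 of the 10 genes, and old HFD replicate 4 likewise. Old HFD replicate 6, which had the highest macrophage sum of its group, was lowest for 0 of the 10 genes and second lowest for 7, and its single genes ran from 56.7% to 104% of the young ND mean. Expressed as a percentage of the young ND mean, the median of the 10 genes was 50.4% in old ND replicate 4, 57.0% in old HFD replicate 4, 62.4% in old ND replicate 3 and 71.9% in old HFD replicate 6. In the other 20 mice it ran from 74.3% to 119%. Young ND replicate 4 and young HFD replicate 5, which had the highest macrophage sums of their groups at 45.0 and 98.9 CPM, had the lowest levels of their groups for 9 and 6 of the 10 genes. Young HFD replicate 6, at a similar sum of 96.7 CPM, had a median of 95.3% and was lowest for 1 gene. Old ND replicate 6 had a median of 74.3% at a sum of only 31.5 CPM. The part these transcripts play in the differences below was not tested, and each called difference of the 10 genes is given with and without the 4 mice above 100 CPM. That limit was set after the data were seen. The 4 mice are all old and have the lowest medians, so leaving them out is not a test of that part.

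**Figure D1:**
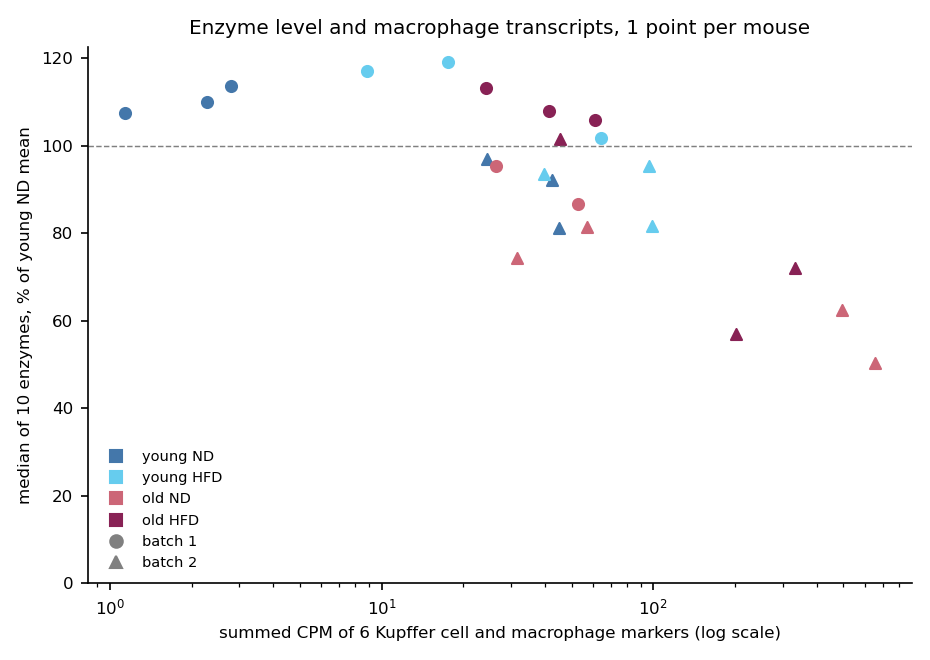
Median level of the 10 breakdown enzymes in each mouse as a percentage of the young ND mean (vertical axis) against the summed CPM of 6 Kupffer cell and macrophage markers (horizontal axis, log scale), 1 point per mouse, coloured by group and shaped by batch. The 4 mice above 100 CPM of markers, 2 old ND and 2 old HFD, lie between 50.4% and 71.9%.

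With age on ND the estimates of all 10 enzymes were below 0, with a median log2 fold change of -0.38 and a range from -0.47 to -0.18. Of all genes tested, 49.1% were below 0 and their median was 0.01. Only Ivd was called lower, so 1 of 10 stood beside 8.5% of all genes called in either direction and 1.24% called lower. Before adjustment, 7 of the 10 had p under 0.05, against 22.2% of all genes. The median of the 10 was -0.22, with 9 below 0, without the 4 mice above 100 CPM of macrophage markers. The old ND and young ND mice overlapped for every one of the 10, and 3.80% of all genes had no overlap.

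HFD in old mice gave estimates above 0 for all 10, with a median of 0.22 and a range from 0.01 to 0.56, where 49.1% of all genes were above 0. Without old HFD replicate 5 the median was 0.14, with 3 of 10 below 0. Ppm1k was the single member called, and it was higher, beside 3.01% of all genes called in either direction and 1.37% called higher. Before adjustment 2 of the 10 had p under 0.05, against 2990 of all 13583 genes. HFD in young mice gave 6 estimates above 0 and 4 below, with a median of 0.04. None of the 10 was called there, by edgeR or by DESeq2, while 3.5% of all genes were called, and none had an unadjusted p under 0.05, against 21.2% of all genes. Leaving out young HFD replicate 6 gave a median of -0.01 with 5 below 0, and leaving out young HFD replicate 1 gave 0.11 with 3 below 0.

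On HFD, the 10 age estimates were all below 0, with a median of -0.15 and a range from -0.29 to -0.00. Of the 10, 5 were below and 5 above 0 with a median of -0.01 without the 4 mice above 100 CPM of macrophage markers, and without old HFD replicate 4 alone 6 were below 0 with a median of -0.07. No member was called by edgeR or DESeq2, against 2.24% of all genes called, and none had an unadjusted p under 0.05, against 2848 of all 13583 genes. Between old HFD and young ND, the groups that differ in both respects, 8 estimates were below 0 with a median of -0.09, and Ivd was the only member called, beside 30.2% of all genes called and 12.9% called lower. There 1 of the 10 had an unadjusted p under 0.05, against 42.3% of all genes. The signs of the estimates turned to 4 below and 6 above 0 both without old HFD replicate 4 (median 0.04) and without the 4 mice above 100 CPM (median 0.06). Age on ND and HFD in old mice share the 6 old ND mice, so their estimates are not independent: a low level in old ND lowers the former and raises the latter.

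The age by diet interaction, which tests whether HFD acted differently in old and young mice, was above 0 for all 10 members, with a median of 0.22 and a range from 0.01 to 0.41. Without old HFD replicate 5 the median was 0.08 and without old ND replicate 4 it was 0.14, each with 2 of 10 below 0. The smallest adjusted p among them was 0.554 in edgeR's quasi-likelihood test. That test called 0.0% of genes, 0 of 13583, although 1247 had an unadjusted p under 0.05 and DESeq2 called 7. A response to HFD that differs with age was thus not shown for any of these enzymes.

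**Figure D2:**
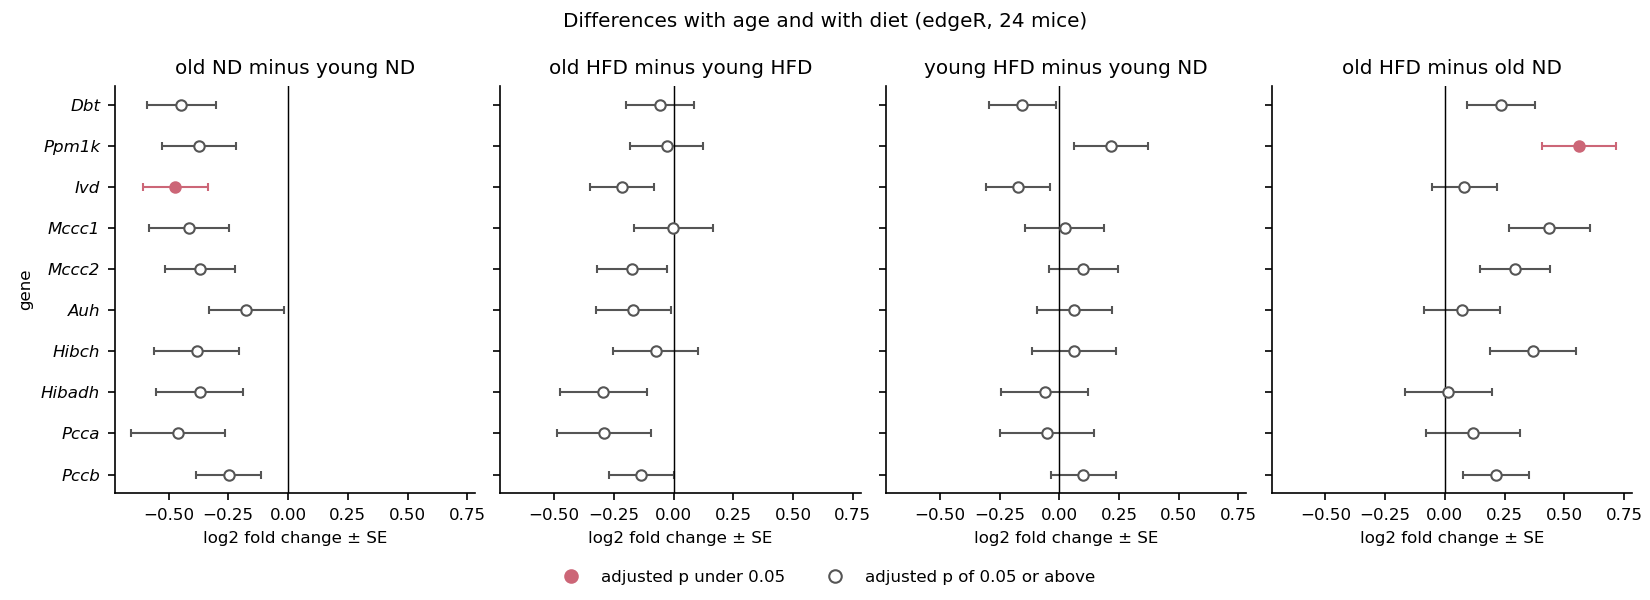
Log2 fold change with its SE (horizontal axis) for each of the 10 genes (vertical axis) in 4 comparisons of 6 mice against 6, from the edgeR model of 24 mice. Filled red points are called, open grey points are not: all 10 points lie left of 0 in old ND minus young ND with Ivd called, and all 10 lie right of 0 in old HFD minus old ND with Ppm1k called.

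The promoters of Ivd and Ppm1k, the called members, are shown because they are where transcription of these 2 genes starts. They are the bases before the RefSeq start on GRCm38.p6, 5′ to 3′ on the gene's strand: chr2:118861744-118861953 on the plus strand for Ivd, and chr6:57535488-57535737 on the minus strand for Ppm1k. The Ivd stretch was ended at 210 bases, before the start of the GENCODE gene model, and that of Ppm1k has the full 250. Capitals mark ATTGG, the core of the CCAAT box, and GGGCGG, the core of the GC box, each searched on both strands and not overlapping here.
Ivd: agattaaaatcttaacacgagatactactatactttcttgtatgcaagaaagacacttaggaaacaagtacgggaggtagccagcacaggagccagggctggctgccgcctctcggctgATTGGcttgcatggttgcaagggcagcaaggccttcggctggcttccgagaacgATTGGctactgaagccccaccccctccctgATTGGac
Ppm1k: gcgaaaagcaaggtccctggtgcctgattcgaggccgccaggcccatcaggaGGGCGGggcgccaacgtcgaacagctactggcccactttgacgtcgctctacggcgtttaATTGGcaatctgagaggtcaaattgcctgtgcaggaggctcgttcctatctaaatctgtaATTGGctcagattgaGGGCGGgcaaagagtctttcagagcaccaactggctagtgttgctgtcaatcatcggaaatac

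The Ivd stretch holds 3 ATTGG cores and no GC box core, and the Ppm1k stretch holds 2 of each. Over 250-base windows, ATTGG was present for 6 of the 9 members that had a window and in 33.8% of 32851 windows of all genes. GGGCGG was present for 6 of 9 members and in 32.7% of all windows. CACGTG, the E-box letters, was present only for Mccc2 among the 9 and in 6.02% of all windows. TATAAA was in no member's window and in 12.4% of all windows. These matches describe letters in the window and no binding was measured.

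The core and the switch of the complex are encoded by Dbt and Ppm1k. Dbt encodes the E2 transacylase on which the other subunits assemble (chromosome 3, 116513070 to 116549981, plus strand, GRCm38). Its level ran from 84.9 to 132 CPM in young ND (median 107) and from 73.0 to 104 in young HFD (median 102). It ran from 52.4 to 99.8 CPM in old ND (median 73.7) and from 62.4 to 135 in old HFD (median 92.4). In old ND 5 of 6 mice lay below every young ND mouse. Within young ND the 3 mice of batch 1 were at 122 to 132 CPM and the 3 of batch 2 at 84.9 to 91.0 CPM, so the batches did not overlap there. With age on ND, Dbt had a log2 fold change of -0.45 (SE 0.14), with an edgeR quasi-likelihood adjusted p of 0.0526, just short of a call. It was called in 6 of the 24 fits that left out 1 mouse, those without old ND replicate 5 or old HFD replicates 1, 2, 4, 5 and 6. With HFD in old mice it was 0.24 (SE 0.14) and with HFD in young mice -0.15 (SE 0.14), neither called. Leaving out 1 mouse moved these to between 0.13 (without old HFD replicate 5) and 0.32, and between -0.23 (without young HFD replicate 6) and -0.08 (without young HFD replicate 5).

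Ppm1k, the phosphatase that activates the complex (chromosome 6, 57506502 to 57535468, minus strand), was called higher with HFD in old mice. In young ND it ran from 58.8 to 109 CPM (median 83.1) and in young HFD from 85.1 to 115 CPM (median 98.6). In old ND it ran from 46.2 to 88.1 CPM (median 64.4) and in old HFD from 81.3 to 128 CPM (median 89.7). Of the old HFD mice, 4 of 6 lay above every old ND mouse. The group means were 96.8 CPM in old HFD and 65.2 CPM in old ND. The log2 fold change was 0.56 (SE 0.15, 95% interval 0.26 to 0.86), a 1.47-fold difference with an edgeR quasi-likelihood adjusted p of 0.0475. It was 0.24 within batch 1 and 0.76 within batch 2. Without the 4 mice above 100 CPM of macrophage markers it was 0.49 with an edgeR adjusted p of 0.12. In young mice the HFD difference was 0.22 (SE 0.15) and was not called, and it was 0.13 without young ND replicate 4.

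The Ppm1k call sat close to the threshold. It was lost when any of 17 of the 24 mice was left out, with edgeR adjusted p from 0.0511 to 0.095 and log2 fold changes from 0.46 to 0.59. Those mice were young ND replicates 1, 2, 3, 5 and 6, young HFD replicates 2, 3, 4 and 6, old ND replicates 2 to 6, and old HFD replicates 2, 5 and 6. The estimate itself stayed above 0 in all 24 of these fits.

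Bckdk, the kinase that opposes Ppm1k, ran from 9.55 to 11.5 CPM in young ND and from 8.56 to 13.5 in young HFD. It ran from 7.33 to 16.2 CPM in old ND and from 9.90 to 21.5 in old HFD. Old HFD mice exceeded young ND mice by 0.44 (SE 0.14, edgeR adjusted p = 0.0221), which was called, and Bckdk was not called in the other comparisons. The log2 ratio of Ppm1k to Bckdk ran from 2.34 to 3.50 in young ND, with a median of 2.96, and from 2.88 to 3.33 in young HFD, with a median of 3.01, against 1.65 to 3.16 in old ND (median 2.13) and, with HFD, 1.91 to 3.18 in old mice (median 2.81).

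The ratio in old ND was 2.37 ± 0.605 (SD, n = 6) and in young ND 2.98 ± 0.416 (SD, n = 6), a difference of -0.60. The two-sided exact permutation test within batches gave p = 0.04, and 0.16 after Benjamini-Hochberg adjustment over 4 comparisons, so the difference did not hold up. It was -0.02 in batch 1 and -0.81 in batch 2. The difference was 0.38 with HFD in old mice (exact permutation p = 0.166, adjusted 0.221), 0.09 with HFD in young mice (exact permutation p = 0.61) and -0.32 with age on HFD (exact permutation p = 0.145, adjusted 0.221). That with HFD in old mice had opposite signs by batch, -0.19 in batch 1 and 0.57 in batch 2. Without old ND replicate 4 the difference with HFD in old mice was 0.24, and without old HFD replicate 4 that with age on HFD was -0.15. The smallest two-sided p these permutations can give is 0.00286 for comparisons with old ND and 0.005 for the others.

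**Figure D3:**
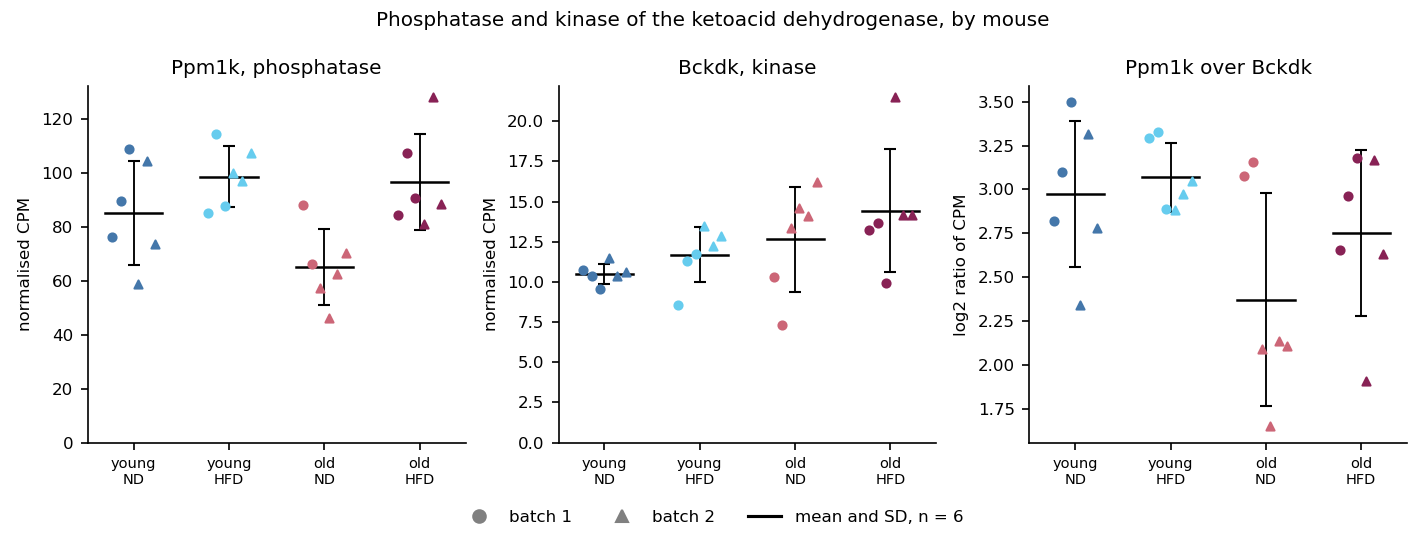
CPM of Ppm1k and of Bckdk and the log2 ratio of their CPM (vertical axes) in each of 24 mice by group, with mean and SD and with batch as point shape. In old ND the ratio is 3.08 and 3.16 in the batch 1 mice and 1.65 to 2.14 in the batch 2 mice.

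Leucine's own route begins with Ivd, isovaleryl-CoA dehydrogenase (chromosome 2, 118861954 to 118882909, plus strand), whose loss causes isovaleric acidaemia. Ivd ran from 152 to 220 CPM in young ND (median 191) and from 148 to 183 in young HFD (median 165). It ran from 97.1 to 163 CPM in old ND (median 137) and from 120 to 187 in old HFD (median 136). Of the old mice, 4 of 6 on ND and 4 of 6 on HFD lay below every young ND mouse.

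In old ND relative to young ND, Ivd fell by 0.47 on the log2 scale (SE 0.14, 95% interval -0.74 to -0.21), a 1.39-fold difference with an edgeR quasi-likelihood adjusted p of 0.0307. Within batch 1 the difference was -0.50 and within batch 2 it was -0.37. Without the 4 mice above 100 CPM of macrophage markers it was -0.33, with an edgeR adjusted p of 0.268. That fit has fewer old mice, and it called 94 of 13593 genes with age on ND, against 1155 of 13583 with all mice. The call was also lost without any of 7 single mice, namely young ND replicates 1, 2, 3 and 6 and old ND replicates 2, 3 and 4, with edgeR adjusted p from 0.056 to 0.0887. Between old HFD and young ND, Ivd fell by 0.39 on the log2 scale (SE 0.13, edgeR adjusted p = 0.0319), with -0.70 in batch 1 and -0.09 in batch 2. That call was lost without the same 4 mice (-0.36, edgeR adjusted p = 0.0684) and without any of 7 single mice, namely young ND replicates 1, 2 and 3, old ND replicate 2 and old HFD replicates 2, 3 and 4, with edgeR adjusted p from 0.0506 to 0.0859. With HFD the difference of Ivd was -0.17 in young mice (SE 0.13) and 0.08 in old mice (SE 0.13), neither called. The former was -0.10 without young HFD replicate 1, and the latter ran from -0.01 to 0.14 as single mice were left out.

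Mccc1 and Mccc2 encode the biotin-bearing and the carboxyl-transferring subunits of 3-methylcrotonyl-CoA carboxylase, the next carboxylation of leucine breakdown. Mccc1 (chromosome 3, 35959312 to 36000678, minus strand) ran from 45.0 to 83.8 CPM in young ND and from 43.3 to 77.6 in young HFD. It ran from 32.0 to 53.2 CPM in old ND and from 24.7 to 111 in old HFD. The spread within old HFD was the widest, with its lowest value in replicate 4 and its highest in replicate 2, both among the libraries that stood apart. Its exons overlap 613 bases of antisense and pseudogene models on the opposite strand, and the use of strand in counting is not stated, so a share of its reads is uncertain.

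For Mccc1 the difference with age on ND was -0.41 (SE 0.17, edgeR adjusted p = 0.134) and with HFD in old mice 0.44 (SE 0.17, edgeR adjusted p = 0.137), neither called. Without the 4 mice above 100 CPM of macrophage markers the HFD difference in old mice was 0.63 and was called, with an edgeR adjusted p of 0.0251. Leaving out old HFD replicate 4 alone also gave a call, at 0.62 with an edgeR adjusted p of 0.0162. Mccc2 (chromosome 13, 99948530 to 100015639, minus strand) was at 65.9 CPM ± 8.61 in young ND (SD, n = 6) and 70.9 ± 12.2 in young HFD, against 49.2 ± 11.7 in old ND and, with HFD, 62.9 ± 16.3 in old mice. Its differences were -0.37 with age on ND (SE 0.15) and 0.29 with HFD in old mice (SE 0.15), also not called, and the latter was 0.17 without old HFD replicate 5. For age on ND, Mccc1 was called when old HFD replicate 4 was left out, at -0.42, and Mccc2 when old ND replicate 5 was left out, at -0.45.

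Auh encodes the hydratase that follows in leucine breakdown (chromosome 13, 52835119 to 52929681, minus strand). Its age difference on ND was the smallest of the 10, with means of 30.3 CPM ± 2.69 in young ND and 31.7 ± 2.93 in young HFD, against 26.5 ± 6.70 in old ND and, with HFD, 28.4 ± 6.84 in old mice (SD, n = 6). The median in old ND, 29.4 CPM, was close to that of young ND, 30.0 CPM, and the low mice of old ND were replicates 3 and 4, at 21.7 and 15.2 CPM. Its difference with age on ND was -0.18 (SE 0.16, 95% interval -0.48 to 0.13), or -0.06 without old ND replicate 4. Its interaction was 0.01 (SE 0.22).

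On the valine route, Hibch encodes the hydrolase that frees 3-hydroxyisobutyrate from coenzyme A, and Hibadh the dehydrogenase that oxidises it. Hibch (chromosome 1, 52844929 to 52920986, plus strand) ran from 64.8 to 91.2 CPM in young ND (median 81.6) and from 54.4 to 111 in young HFD (median 83.8). It ran from 31.6 to 84.7 CPM in old ND (median 59.3) and from 32.3 to 119 in old HFD (median 88.9). In old ND 4 of 6 mice were below every young ND mouse, and in old HFD 3 mice were above every old ND mouse while old HFD replicates 4 and 6 were at 32.3 and 52.5 CPM.

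Neither difference of Hibch was called with all 24 mice, -0.38 with age on ND (SE 0.18) and 0.37 with HFD in old mice (SE 0.18). Without the 4 mice above 100 CPM of macrophage markers the HFD difference in old mice was 0.45 and was called, with an edgeR adjusted p of 0.0399. In the same fit Ppm1k was no longer called, so HFD in old mice then had 2 members called, Hibch and Mccc1, beside 401 of 13593 genes. The difference of either gene between young and old mice in its response to HFD was not called in any of these fits.

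Hibadh (chromosome 6, 52546228 to 52640389, minus strand) had means of 330 CPM ± 32.6 in young ND and 319 ± 63.5 in young HFD, against 246 ± 71.8 in old ND and, with HFD, 263 ± 87.3 in old mice (SD, n = 6). In old ND 5 of 6 mice lay below every young ND mouse. Its differences were -0.37 with age on ND (SE 0.18), -0.29 with age on HFD (SE 0.18) and 0.01 with HFD in old mice (SE 0.18), none called. The first was -0.24 without old ND replicate 4, the second -0.17 without old HFD replicate 4, and the last ran from -0.08 to 0.17 as single mice were left out. A snoRNA model of 122 bases lies within its exons on the same strand.

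Propionyl-CoA carboxylase, which takes the propionyl-CoA of valine and isoleucine towards succinyl-CoA, has its biotin-bearing subunit from Pcca and its other subunit from Pccb. Pcca (chromosome 14, 122534324 to 122891100, plus strand) ran from 69.6 to 95.5 CPM in young ND (median 83.0) and from 66.4 to 98.4 in young HFD (median 81.6). It ran from 28.8 to 84.6 CPM in old ND (median 61.9) and from 27.3 to 108 with HFD (median 72.0). Pccb (chromosome 9, 100982032 to 101034898, minus strand) was at 177 CPM ± 12.7 (SD, n = 6), 190 ± 23.8, 145 ± 32.4 and 174 ± 41.8 in the same order of groups. In both genes the spread was wider in the old groups than in young ND, and the lowest old mice were the 4 named above for macrophage markers. Between old ND and young ND, Pcca differed by -0.46 (SE 0.20) and Pccb by -0.25 (SE 0.14), and with HFD in old mice by 0.12 (SE 0.20) and 0.21 (SE 0.14), none called. Without old ND replicate 4 the age difference of Pccb was -0.15, and the HFD difference of Pcca ran from -0.02 to 0.29 as single mice were left out. Ggact overlaps 241 exonic bases of Pcca on the opposite strand.

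**Figure D4:**
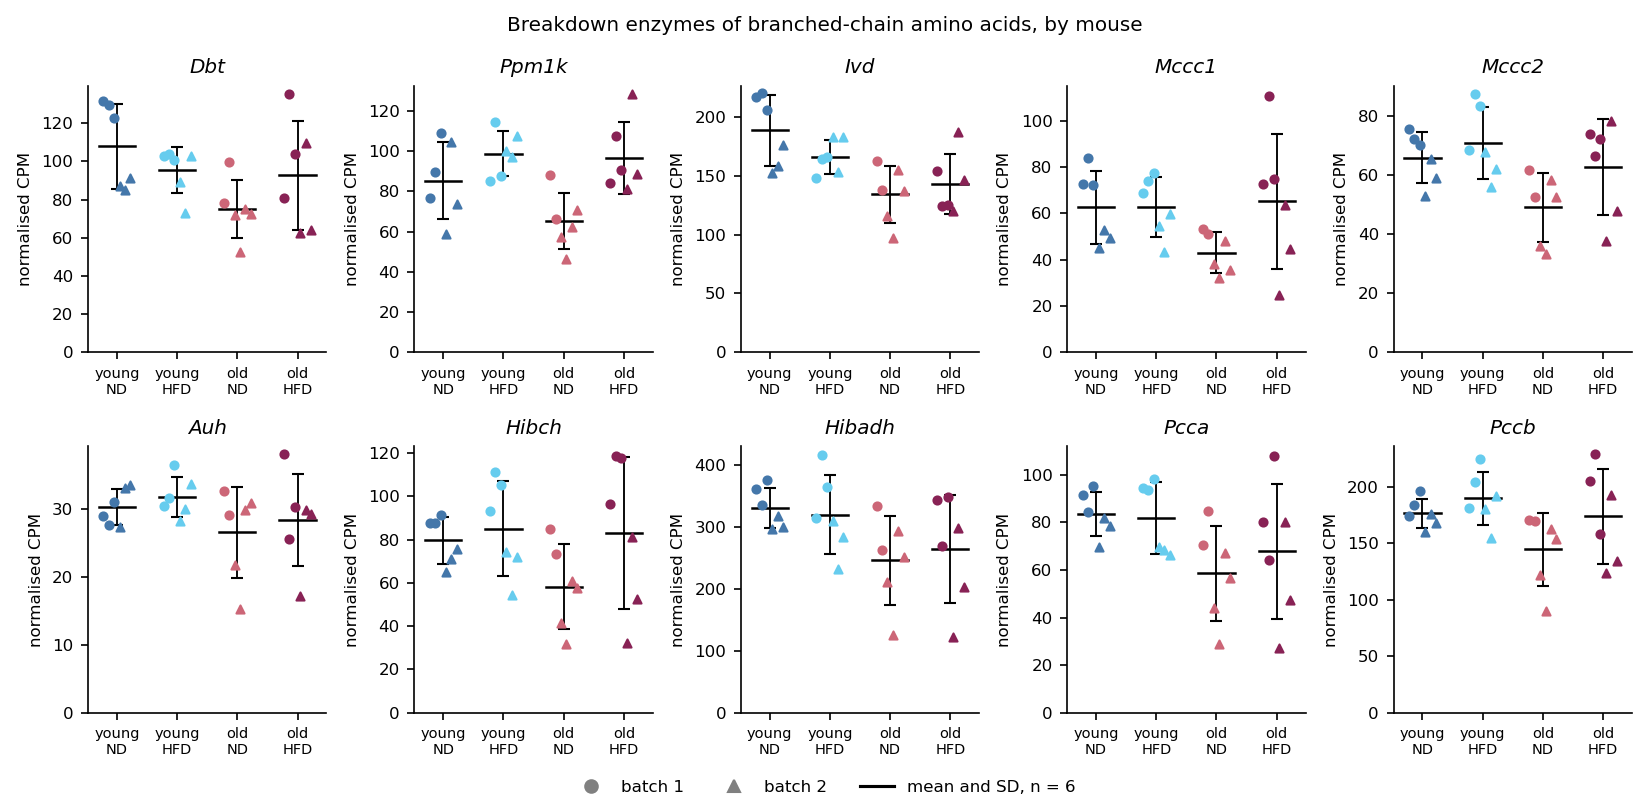
Normalised CPM (vertical axis, from 0) of each of the 10 genes in each of 24 mice by group, with circles for batch 1 and triangles for batch 2 and black lines for the mean and SD of 6 mice. In all 10 panels the lowest old ND point and the lowest old HFD point are replicate 4 of that group, both in batch 2.

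Levels of different genes can be compared only per length, so CPM was divided by the length of each gene's merged exons. Pccb had the most reads per kilobase of exon in all 4 groups, at 63.7 CPM per kb ± 4.57 in young ND and 52.3 ± 11.7 in old ND (SD, n = 6), and its mice lay apart from the next gene in every group. Ivd, Hibadh and Dbt followed in young ND at 34.2 ± 5.46, 32.5 ± 3.20 and 32.2 ± 6.67 CPM per kb, and overlapped each other in every group. Mccc2 came next at 23.5 ± 3.07, then Pcca, then Ppm1k and Hibch at 14.2 ± 3.21 and 13.2 ± 1.77 CPM per kb, and neighbours among these last 3 overlapped. Mccc1 at 5.72 ± 1.43 and Auh at 3.16 ± 0.281 were the lowest in all 4 groups. In young ND the subunits of each carboxylase differed in level per length of exon, though merged exons count every annotated isoform, used or not.

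Pairs of genes whose products work together were compared mouse by mouse. Over 24 mice, after the mean of each group and batch was removed, log2 CPM of Mccc1 and Mccc2 had Pearson r = 0.695 (permutation p = 0.0307) and Spearman rho = 0.500 (permutation p = 0.0468). Pcca and Pccb had r = 0.611 (permutation p = 0.0856) and rho = 0.413 (permutation p = 0.13). Ppm1k and Dbt had r = 0.475 (permutation p = 0.0388) and rho = 0.392 (permutation p = 0.095). Adjusted over these 3 relations the p of r were 0.0582, 0.0856 and 0.0582, and that of rho was 0.13 for each, so none held up.

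The batches gave unlike values, a difference that was not tested. In batch 1 r was -0.11 for Mccc1 with Mccc2, -0.71 for Pcca with Pccb and 0.11 for Ppm1k with Dbt, and in batch 2 it was 0.82, 0.90 and 0.65. Without the 2 mice farthest from the median of the first gene r was 0.40, 0.46 and 0.41. All 4 mice above 100 CPM of macrophage markers belong to batch 2.

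Among all genes tested, those whose log2 CPM followed Ppm1k most closely over the 24 mice were Chpt1 (r = 0.889), Aldh3a2 (r = 0.848) and Khdrbs3 (r = 0.834). For Ivd they were Atg7 (r = 0.890), Tymp (r = 0.882) and Hao1 (r = 0.845). These are descriptions over mice that share groups, batches and cell composition, and neither list holds another of the 10 enzymes. Between members, r over the 24 mice ran from 0.463 for Dbt with Auh to 0.945 for Hibadh with Pcca.

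The steps before and within the complex were read from a list of 7 genes, of which Bcat1, the cytosolic transaminase, was too low to be tested. Of the 6 tested, 1 was called with HFD in old mice and none in young mice or with age on either diet, beside 3.01% of all genes called with HFD in old mice. That gene was Bckdhb, the E1 beta subunit, at 76.2 to 118 CPM in old HFD and 54.8 to 73.5 CPM in old ND with no overlap, a log2 fold change of 0.54 (SE 0.11, edgeR adjusted p = 0.00913). Of all genes, 1.26% had no overlap between these groups. Young HFD and young ND, between which 4.83% of all genes had no overlap, did not overlap either, at 73.4 to 91.8 and 58.0 to 73.1 CPM, with 0.36 (SE 0.11, edgeR adjusted p = 0.0551). With age on ND Bckdhb differed by 0.04 (SE 0.11).

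Bckdha, the E1 alpha partner of Bckdhb, had the opposite sign with HFD in old mice, at -0.15 (SE 0.19), and was not called. Between old HFD and young ND, where 5 of the 6 and 30.2% of all genes were called, Bckdhb (0.57), Bcat2 (0.60) and Bckdk (0.44) were higher, and Bckdha (-0.58) and Slc25a44 (-0.64) were lower, the last a mitochondrial carrier of branched-chain amino acids named here after its value was seen. Bcat2, the mitochondrial transaminase, ran from 13.5 to 24.6 CPM in young ND and from 15.1 to 42.6 in old HFD. Dld, the E3 subunit that other dehydrogenase complexes also use, was not called, with -0.30 for age on ND (SE 0.14) and 0.32 for HFD in old mice (SE 0.14).

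A second list held 18 further enzymes of these routes after the dehydrogenase, all of which were tested. With age on ND all 18 estimates were below 0, with a median of -0.37 and a range from -0.66 to -0.06, and none was called, where 49.1% of all genes were below 0 and 1.24% were called lower. With HFD in old mice 15 were above 0 with a median of 0.29, and 2 were called higher, beside 1.37% of all genes. Agxt2, a mitochondrial aminotransferase, rose with HFD at both ages, from 139 to 168 CPM in young ND to 193 to 246 in young HFD (0.48, SE 0.12, edgeR adjusted p = 0.0251) and from 109 to 166 in old ND to 203 to 326 in old HFD (0.71, SE 0.12, edgeR adjusted p = 0.00286), with no overlap at either age. Of all genes 3.5% were called with HFD in young mice, and 4.83% in young and 1.26% in old mice had no overlap. Acat1, the thiolase at the end of the isoleucine route, rose with HFD in old mice by 0.69 (SE 0.18, edgeR adjusted p = 0.0324) and in young mice differed by 0.33 (SE 0.17), not called.

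The remaining lists were shorter. None of 5 genes of ketone body metabolism and none of 5 regulators (Klf15, Mlxipl, Srebf1, Ppara and Ppargc1a) was called with age or with HFD in any of the 4 comparisons of neighbouring groups. In those comparisons 2.24% to 8.5% of all genes were called, so 0 of 5 is near that share. Of 6 genes of biotin enzymes and biotin handling, Acaca, acetyl-CoA carboxylase of fatty acid synthesis, fell with HFD in old mice by 0.96 on the log2 scale (SE 0.22, edgeR adjusted p = 0.0231), beside 3.01% of all genes called. It carries biotin as Mccc1 and Pcca do, whose estimates in that comparison were above 0. Of 5 amino acid transporters, Slc7a8 and Slc43a2 were called higher with age on ND, where 8.5% of all genes were called, by 3.28 (SE 0.63) and 1.87 (SE 0.46), at edgeR adjusted p of 0.00362 and 0.0127. Both were scarce in young ND, at 0 to 1.01 and 0.671 to 4.58 CPM, and in old ND both were highest in replicates 3 and 4, at 7.65 and 11.8 CPM for Slc7a8 and 17.8 and 31.0 CPM for Slc43a2.

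Other cell types moved with age on ND as well. All 6 Kupffer cell and macrophage markers, 5 of 6 stellate cell markers and 3 of 6 sinusoidal endothelial markers were called higher. Their median log2 fold changes were 3.39, 2.17 and 1.41. Of all genes 8.5% were called in either direction there, and 986 of 13583 were called higher. For the 4 of 7 immune markers that could be tested, 3 were called higher, beside the same 8.5% of all genes, with a median of 3.50. Cd79a was at 0 in every young ND mouse. Neither of the 2 cholangiocyte markers tested was called. The summed level of stellate markers was 5.30 to 65.8 CPM in young ND and 74.6 to 391 in old ND, and that of endothelial markers 8.93 to 104 and 27.0 to 530 CPM. None of the 8 hepatocyte markers was called, and their median was -0.23, beside the median of -0.38 for the 10 breakdown enzymes. With HFD in old mice no marker of these lists was called in either direction, beside 3.01% of all genes called, and the macrophage median was -0.40. Between old HFD and young ND, where Ivd was called, 30.2% of all genes were called in either direction. There 6 of 6 macrophage, 5 of 6 stellate, 6 of 6 endothelial and 4 of 4 immune markers were called higher. The medians were 2.89, 1.93 and 1.52 for the first 3 lists, and the immune markers ranged from 3.01 to 5.09. Of the 8 hepatocyte markers, 1 was called higher and 2 lower in that comparison, with a median of -0.36. Of the 2 cholangiocyte markers tested, 1 was called higher. In hepatocytes of young mice on HFD 1 endothelial and 1 stellate marker were called higher, beside 3.5% of all genes called in either direction. The macrophage median there was 2.06 with none called, while the 10 enzymes had a median of 0.04.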

How the data were processed

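PolyA RNA of hepatocytes was sequenced for 24 mice, which were grouped by their labels. Raw gene counts, as deposited by the authors, came from STAR 2.7.3a in 2-pass mode against mm10 and HTSeq 0.11.2 on the Gencode annotation. The authors also deposited FPKM values from CuffLinks that had been adjusted between batches with ComBat. These FPKM matched a division by the whole gene span, introns included, for 92.0% of 13186 genes, so they served only as an alternative. Strand use in counting is not given in the sources used here.

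Counts were tested with edgeR 4.0.16 in R 4.3.3 (TMM scaling, filterByExpr, quasi-likelihood F test, Benjamini-Hochberg adjustment at 0.05) in a single fit of group plus batch, for 6 comparisons. log2 CPM used a prior count of 2. Total counts per mouse, 9200332 to 22185069, set the precision, and counts of PCR-amplified reads without molecular identifiers carry more than counting error. The scripts were tested on simulated data. Replicate numbers 1 to 6 belong to different mice.

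The 10 members, the gene lists and the markers were chosen with earlier results of these data known. All 10 members are named, with genes of the other lists that were called with age or diet, at most 4 per list, and the genes Bckdk, Bckdha, Bckdhb, Bcat2 and Dld. Alternatives were DESeq2 1.42.0, RLE scaling, no batch term, a replicate block, no count filter, limma 3.58.1 on log2(FPKM + 1), the compared groups alone, each batch alone and leaving out each mouse. After the data were seen, log2(FPKM + 0.01) and 2 ways of leaving out mice with high macrophage markers were added. Permutation tests used Python 3.11.15 with numpy 2.4.6, scipy 1.17.1 and pandas 2.3.3, and plots used matplotlib 3.10.9. Gene positions are from GENCODE and promoters from RefSeq, both on GRCm38.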

Additional observations from a re-analysis of the deposited data

How the results depend on the processing

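These data limit the calls in 3 ways. The called differences of the 10 enzymes are under 1.5-fold with adjusted p from 0.0307 to 0.0475, and several settings moved them across 0.05. The 4 mice with the most macrophage transcripts are all old and all in batch 2. Single batches hold 2 to 4 mice per group and gave no call of a member except Ivd between old HFD and young ND in batch 1.

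With the replicate number as a replicate block in place of the batch, HFD in young mice called 283 genes, age on HFD 131 and the interaction 1. Age on ND called 1350 of 13583 genes, among them 2 members (Ivd at -0.50 and Dbt at -0.53, edgeR adjusted p = 0.0250 and 0.0240). HFD in old mice called 445 genes, and Ppm1k stayed called there at 0.56 (edgeR adjusted p = 0.0417). Mccc1 in old HFD against young ND turned to -0.01. Same-numbered mice did not deviate together once group and batch means were removed (mean r = -0.00199 over 36 pairs, 11 above 0.1), so the numbers do not pair the mice.

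The following counts of genes called are in the order HFD in young mice, HFD in old mice, age on ND and age on HFD, where the values above were 475, 409, 1155 and 304. Without batch they were 174, 266, 628 and 116. With no count filter they were 1473, 1108, 2053 and 1235, and the interaction called 587. DESeq2 called 1213, 1068, 1735 and 821, and 7 for the interaction. In batch 1 alone they were 130, 15, 93 and 9, and in batch 2 alone 9, 16, 2 and 0. Leaving out the mouse with the highest macrophage markers in each group gave 131, 212, 341 and 47. With log2(FPKM + 1), HFD in young mice called 301, age on ND 252 and age on HFD 180, and with log2(FPKM + 0.01) age on HFD called 171. With the 2 compared groups alone, HFD in young mice called 2302, HFD in old mice 15 and age on HFD 48. Without the 4 mice above 100 CPM of macrophage markers, HFD in young mice called 1074, age on ND 94 and age on HFD 94. Old HFD against young ND (4100) called 2094 with the 2 groups alone, 919 in batch 1, 617 in batch 2 and 2605 without those 4 mice.

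Members called with HFD in old mice (1) were 0 without batch, with either FPKM setting, with 2 groups, in either batch and without the highest mouse of each group, and 2 without the 4 mice above 100 CPM. With age on ND (1) they were 2 with no count filter and with DESeq2, and 3 with 2 groups, where 1331 of 12329 genes were called. They were 0 with log2(FPKM + 1), in either batch and in both marker settings. In old HFD against young ND (1) they were 0 with 2 groups, in batch 2 and without the 4 mice above 100 CPM. No member was called in the other 3 comparisons under any of these alternatives.

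Estimates that changed sign were those of genes not called there. With HFD in young mice, batch 2 gave 0.04 for Dbt, 0.12 for Ivd, -0.01 for Auh and -0.05 for Hibch, batch 1 gave -0.06 for Mccc1, 0.03 for Hibadh and 0.08 for Pcca, FPKM gave 0.02 for Hibadh with either pseudocount and 0.01 and 0.06 for Pcca, and the highest mouse of each group left out gave 0.01 for Hibadh. With HFD in old mice, Ivd was -0.21 in batch 1, -0.01 without the highest mice and -0.03 without the 4 mice above 100 CPM, Auh was -0.02, -0.07 and -0.01 under the same settings, and Hibadh was -0.01 with no filter, -0.07 in batch 2 and -0.07 without the highest mice. With age on ND, Auh was 0.09 in batch 1 and 0.03 without the 4 mice, and Bckdk -0.20 in batch 1. With age on HFD, batch 1 gave 0.03 for Dbt and 0.08 for Hibch, and leaving out the 4 mice gave 0.09 for Dbt, 0.03 for Ppm1k, 0.17 for Hibch and 0.00 for Pccb. Mccc1, at -0.00 with age on HFD, was 0.20 in batch 1, 0.22 without the 4 mice, 0.05 without batch and 0.01 to 0.02 with RLE, DESeq2, log2(FPKM + 1) and 2 groups.

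In old HFD against young ND, Mccc1 was -0.02 with no filter and -0.14 in batch 2, Mccc2 was 0.10 without the 4 mice, and Auh was 0.07 in batch 1 and 0.02 without the 4 mice. Hibch there was 0.06 without batch, 0.03 with RLE, 0.03 with DESeq2, 0.07 and 0.13 with FPKM, 0.02 with 2 groups, 0.29 in batch 1, 0.05 without the highest mice and 0.25 without the 4 mice. Pccb was 0.01 with RLE, 0.01 with DESeq2, 0.02 and 0.02 with FPKM, 0.06 in batch 1, 0.02 without the highest mice and 0.12 without the 4 mice. The interaction of Auh was -0.02 with no filter, -0.02 and -0.08 with FPKM, -0.19 in batch 1, -0.14 without the highest mice and -0.09 without the 4 mice, and that of Hibadh was -0.08 without the highest mice. With batch means kept, the correlations were 0.808 for Mccc1 with Mccc2, 0.767 for Pcca with Pccb and 0.487 for Ppm1k with Dbt, all then past the threshold, and log2(FPKM + 1) gave -0.02 for Pcca with Pccb. Estimates that crossed 0 by less than 0.005 are not listed, apart from that of Pccb. The cause of these changes was not tested.

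Leaving out each mouse in turn gave 146 to 998 genes called with HFD in young mice, 84 to 823 with HFD in old mice, 586 to 1592 with age on ND, 40 to 813 with age on HFD and 0 to 1 for the interaction. The lowest and highest came without young ND replicate 2 and old HFD replicate 2, without old ND replicate 2 and old HFD replicate 3, without old ND replicate 4 and old HFD replicate 2, and without young HFD replicate 4 and old HFD replicate 3. Members called were 0 to 2 with HFD in old mice, 0 to 3 with age on ND and 0 to 1 in old HFD against young ND. With HFD in young mice, Mccc1 ran from -0.04 to 0.10, Hibadh from -0.10 to 0.02 and Pcca from -0.10 to 0.01. With HFD in old mice, Ivd ran from -0.01 to 0.14, Auh from -0.02 to 0.20, Hibadh from -0.08 to 0.17 and Pcca from -0.02 to 0.29. With age on HFD, Dbt ran from -0.18 to 0.01, Ppm1k from -0.15 to 0.01, Hibch from -0.17 to 0.06 and Mccc1 from -0.14 to 0.14. In old HFD against young ND, Mccc1 ran from -0.12 to 0.20, Mccc2 from -0.18 to 0.05, Auh from -0.20 to 0.03, Hibch from -0.08 to 0.16 and Pccb from -0.10 to 0.06. The interaction ran from -0.11 to 0.10 for Auh and from -0.05 to 0.20 for Hibadh. The log2 ratio of Ppm1k to Bckdk ran from -0.033 to 0.198 with HFD in young mice, from 0.236 to 0.547 with HFD in old mice, from -0.403 to -0.150 with age on HFD and from -0.761 to -0.460 with age on ND, where the adjusted exact permutation p was 0.0381 without young ND replicate 1.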
